A study of Mus musculus with 12 samples.

Results

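The genes of nitric oxide signalling described here are Nos3, Gucy1a3, Gucy1b3, Ddah1, Ddah2, Cav1, Pde5a and Prkg1. They were named for their known place in the pathway, found by gene symbol, and make up 8 of the 14096 genes in the deposited tables. Glomerular mRNA had been sequenced in 12 male eNOS−/− mice on a C57BL/6J background, in 4 groups of 3. All mice, the controls included, carry the homozygous disruption of Nos3, so no group has the intact gene. Diabetic mice had been given streptozotocin (STZ, a toxin of insulin-producing cells) from an age of 8 weeks, in 5 daily doses of 50 mg/kg, and the nondiabetic mice citrate buffer alone. Treatment by oral gavage began 10 weeks later and lasted 8 weeks, with arctigenin (ATG, a plant lignan) at 40 mg/kg per day or with the vehicle, 5% DMSO. The groups are called vehicle-treated nondiabetic, ATG-treated nondiabetic, vehicle-treated diabetic and ATG-treated diabetic mice, and mice are numbered 1 to 3 within each.

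In the vessel wall, NOS3 of the endothelium makes nitric oxide from arginine. The gas diffuses to neighbouring smooth muscle and mesangial cells and binds soluble guanylate cyclase, a heterodimer that makes cyclic GMP. Cyclic GMP activates the kinase PRKG1, which relaxes these cells, and PDE5A removes it. Caveolin-1 binds and restrains NOS3, and the DDAH enzymes degrade asymmetric dimethylarginine, an endogenous inhibitor of the nitric oxide synthases. Mice without NOS3 are hypertensive and develop more severe diabetic glomerular injury than mice with it.

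Values are the deposited log2 normalised reads per gene, which are not divided by gene length. Reads recovered from them numbered 23.64 to 29.77 M (mega) per mouse, and the members had between 449 reads (Pde5a) and 4267 reads (Cav1) in a mouse. Differences were tested with limma in all 12 mice and adjusted with the Benjamini-Hochberg method over all 14096 genes, and a gene was called at an adjusted p under 0.05. The labels describe both RNA from whole isolated glomeruli and a sort of dissociated cells. Endothelial, podocyte, mesangial and tubule markers were all present in all 12 libraries, and none of the 76 listed markers was at 0. The tubule markers differed between groups, with means over 20 genes of 13.08 ± 0.281 (SD, n = 3) in vehicle-treated nondiabetic, 13.76 ± 0.308 in ATG-treated nondiabetic, 11.74 ± 0.668 in vehicle-treated diabetic and 12.05 ± 0.331 in ATG-treated diabetic mice on the log2 scale. The first part of the mouse labels also differs between groups, so a batch named by it cannot be told apart from the group. Mouse 1 of each nondiabetic group has a label of another form than its group.

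Upstream sequence is shown for Ddah2, the member called in vehicle-treated diabetic mice, and for Gucy1b3, a cyclase subunit called in ATG-treated nondiabetic mice. The sequences are from RefSeq on GRCm38.p6, run 5′ to 3′ on the gene's strand and hold the 250 bases before the start site. Entries were found for 7 of the 8 members, not for Nos3. Capitals mark GGGCGG (a GC box), CCAAT and CACCC, searched on both strands with no overlap among the matches shown, and TATAAA was searched too.
Ddah2, chr17:35058785-35059034, plus strand: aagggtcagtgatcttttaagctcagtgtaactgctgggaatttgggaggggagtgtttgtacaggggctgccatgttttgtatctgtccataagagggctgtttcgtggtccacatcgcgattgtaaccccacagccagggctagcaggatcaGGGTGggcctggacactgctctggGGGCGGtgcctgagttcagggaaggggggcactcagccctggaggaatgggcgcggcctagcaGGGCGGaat
Gucy1b3, chr3:82074712-82074961, minus strand: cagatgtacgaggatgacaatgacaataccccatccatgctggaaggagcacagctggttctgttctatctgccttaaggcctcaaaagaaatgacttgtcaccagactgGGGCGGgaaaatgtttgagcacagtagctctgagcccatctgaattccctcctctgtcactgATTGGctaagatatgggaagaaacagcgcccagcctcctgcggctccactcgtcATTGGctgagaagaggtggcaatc
The Ddah2 window holds GGGCGG 2 times, CACCC 1 time and neither CCAAT nor TATAAA. The Gucy1b3 window holds GGGCGG 1 time, CCAAT 2 times and neither of the others. Among 32851 promoter windows of the same length, 32.7% hold GGGCGG, 33.8% CCAAT, 52.0% CACCC and 12.4% TATAAA. The matches describe these windows and are not binding sites.

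Per kilobase of the deposited transcript length, the members spanned a wide range of levels. In vehicle-treated nondiabetic mice, linear normalised reads per kilobase were 1681 ± 149 (SD, n = 3) for Cav1 and 1501 ± 98.6 for Ddah2. They were 618 ± 57.2 for Ddah1, 504 ± 82.1 for Nos3, 478 ± 70.5 for Gucy1a3 and 445 ± 38.9 for Gucy1b3. Prkg1 was at 247 ± 17.0 and Pde5a lowest at 169 ± 13.3. Neighbours in this order were within their spread from Cav1 to Ddah2 and from Ddah1 through Nos3 and Gucy1a3 to Gucy1b3, while Prkg1 and Pde5a stood apart from each other and from the rest. In vehicle-treated diabetic mice the order at the top was the other way round, with 2255 ± 55.1 for Ddah2 and 1686 ± 39.4 for Cav1 per kilobase. Each gene has 1 length in the tables, so the order between genes is approximate.

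**Figure D1:**
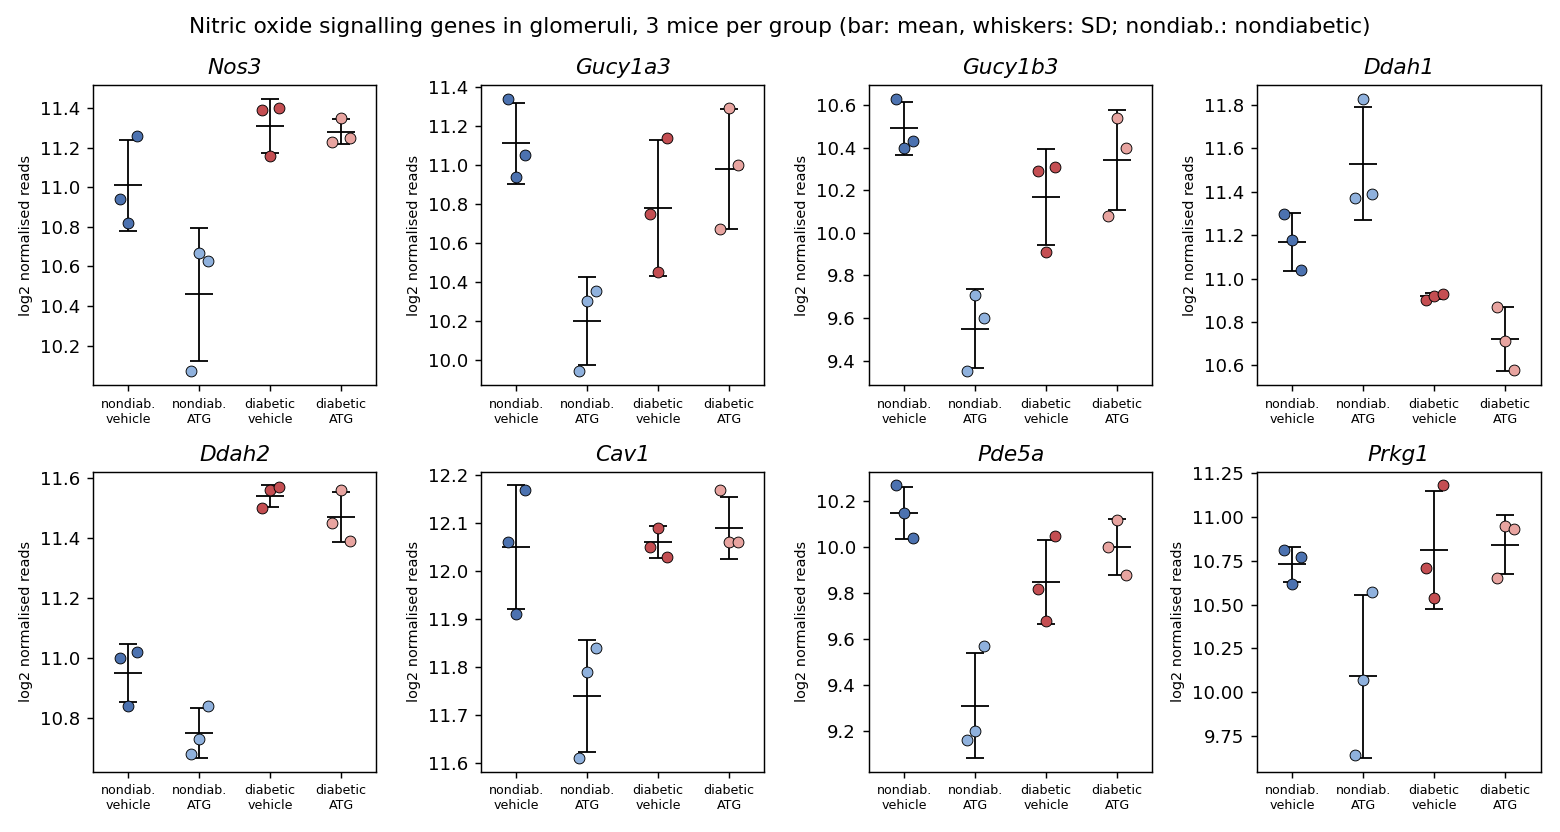
Log2 normalised reads (y axis, a separate range per gene) of the 8 members in each of the 12 mice by group (x axis); points are mice, the bar is the group mean and the whiskers are the SD. The ATG-treated nondiabetic mice are below the vehicle-treated nondiabetic mice without overlap for Nos3, Gucy1a3, Gucy1b3, Cav1, Pde5a and Prkg1, and both diabetic groups are above both nondiabetic groups for Ddah2.

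Nos3 (Entrez 18127, mm10 chr5:24364819-24384474, plus strand), the disrupted gene, had reads in every mouse. Its log2 value was 10.94, 10.82 and 11.26 in vehicle-treated nondiabetic mice 1 to 3 and 10.07, 10.67 and 10.63 in the ATG-treated nondiabetic mice. It was 11.39, 11.16 and 11.40 in vehicle-treated diabetic mice and 11.23, 11.35 and 11.25 in ATG-treated diabetic mice. The ATG-treated nondiabetic mice were lowest and overlapped no other group, and the diabetic groups overlapped each other. These values sum the reads over the whole gene and do not show which exons they come from, so they check neither the disruption nor the protein.

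The difference of vehicle-treated diabetic from vehicle-treated nondiabetic mice was 0.31 for Nos3 (SE 0.16, limma adjusted p = 0.189), and 0.11 (SE 0.26) with the tubule marker mean of each mouse as covariate. That of ATG in nondiabetic mice was −0.55 (SE 0.16, limma adjusted p = 0.0649), and neither difference was called. Without ATG-treated nondiabetic mouse 3 the ATG difference was −0.64 and was called (limma adjusted p = 0.0262), the 1 call in 12 such fits. Without ATG-treated nondiabetic mouse 1 it was −0.36 and was not called. Diabetic exceeded nondiabetic mice under ATG by 0.82 (SE 0.16, limma adjusted p = 0.00225), 1.77-fold on the linear scale. In bulk glomeruli, fewer cells of a type and less RNA per cell cannot be told apart, and the markers of the endothelium moved with Nos3. The mean of 16 endothelial markers was 13.18 ± 0.0778 (SD, n = 3) in vehicle-treated nondiabetic, 12.55 ± 0.412 in ATG-treated nondiabetic, 13.58 ± 0.103 in vehicle-treated diabetic and 13.61 ± 0.0605 in ATG-treated diabetic mice. Their summed linear level was 190696 to 208243 and 96756 to 168175 in the nondiabetic groups, and 245483 to 274859 and 258425 to 282693 in the diabetic groups, in the same order. Measured against the endothelial mean of the same mouse, Nos3 differed by −0.24 to 0.09 in the 4 comparisons of groups, and the groups overlapped in each.

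Cav1 (Entrez 12389, mm10 chr6:17306335-17341328, plus strand), which encodes the caveolar coat protein that restrains NOS3, was the most even member across the diabetic groups. Its log2 value was 12.06, 11.91 and 12.17 in vehicle-treated nondiabetic and 11.61, 11.79 and 11.84 in ATG-treated nondiabetic mice. In vehicle-treated diabetic mice it was 12.05, 12.09 and 12.03, and in ATG-treated diabetic mice 12.17, 12.06 and 12.06. Only the ATG-treated nondiabetic mice stood below the other groups without overlap. Between vehicle-treated groups the difference was 0.01, with a 95% interval of −0.17 to 0.18. ATG in nondiabetic mice gave −0.30 (SE 0.08, limma adjusted p = 0.0519), which was not called. It was called in limma-voom on the recovered reads (−0.31, adjusted p = 0.0483). It was also called without vehicle-treated nondiabetic mouse 2 (limma adjusted p = 0.0472), ATG-treated nondiabetic mouse 3 (0.0174) or vehicle-treated diabetic mouse 3 (0.0464). Against the endothelial mean of the same mouse, Cav1 was lower in vehicle-treated diabetic than in vehicle-treated nondiabetic mice by −0.39 without overlap of the groups, since the endothelial mean was higher in diabetes and Cav1 was not.

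The enzymes that remove asymmetric dimethylarginine went different ways. Ddah2 (Entrez 51793, mm10 chr17:35059035-35062099, plus strand) rose in diabetes and was the only member called between the vehicle-treated groups, where 18.9% of all genes were called and 10.2% were called higher. Its log2 value was 11.00, 10.84 and 11.02 in vehicle-treated nondiabetic and 11.50, 11.56 and 11.57 in vehicle-treated diabetic mice. The difference was 0.59 (SE 0.07, limma adjusted p = 0.00199), 1.50-fold, with no overlap of the groups. Under ATG the values were 10.68, 10.73 and 10.84 in nondiabetic and 11.45, 11.56 and 11.39 in diabetic mice, a difference of 0.72 (SE 0.07, limma adjusted p = 0.000114). With the mean tubule marker value as covariate, the difference between vehicle-treated groups was 0.57 (SE 0.12, limma adjusted p = 0.0399), so this call was kept. The covariate left 0.69 under ATG (SE 0.14, limma adjusted p = 0.0553), which was not called. Leaving out each of the 12 mice in turn gave 0.53 to 0.62 between vehicle-treated groups, called every time. Against the endothelial mean of the same mouse, Ddah2 was still higher in vehicle-treated diabetic mice, by 0.19, and the groups did not overlap. Under ATG the same relative value was −0.34 in diabetic against nondiabetic mice, and the groups overlapped.

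Ddah1 (Entrez 69219, mm10 chr3:145758692-145894277, plus strand) was lower in both diabetic groups than in both nondiabetic groups. Its log2 value was 11.30, 11.18 and 11.04 in vehicle-treated nondiabetic and 11.37, 11.83 and 11.39 in ATG-treated nondiabetic mice. It was 10.90, 10.92 and 10.93 in vehicle-treated diabetic and 10.87, 10.71 and 10.58 in ATG-treated diabetic mice. The 4 groups did not overlap in any of the 4 comparisons, yet 1 passed the test. Diabetic mice were lower under ATG by −0.81 (SE 0.12, limma adjusted p = 0.000719), 1.75-fold. The differences of −0.26 between vehicle-treated groups (SE 0.12, limma adjusted p = 0.157) and 0.36 for ATG in nondiabetic mice (SE 0.12, limma adjusted p = 0.0967) were not called. The latter was called without ATG-treated nondiabetic mouse 3 (0.43, limma adjusted p = 0.0411), the 1 call in 12 such fits. Without ATG-treated nondiabetic mouse 2 it was 0.21 and was not called. With the tubule marker mean as covariate the difference under ATG was −0.50 (SE 0.22, limma adjusted p = 0.262), that between vehicle-treated groups −0.0163 (SE 0.19) and that of ATG in nondiabetic mice 0.23 (SE 0.14), none of them called.

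The subunits of soluble guanylate cyclase, the receptor of nitric oxide, fell with ATG in nondiabetic mice. Gucy1a3 (RefSeq Gucy1a1, Entrez 60596, mm10 chr3:82092427-82145877, minus strand) encodes the alpha-1 subunit. Gucy1b3 (RefSeq Gucy1b1, Entrez 54195, mm10 chr3:82032004-82074711, minus strand), its neighbour 17715 bases away on the same strand, encodes the haem-binding beta-1 subunit. Gucy1a3 was at a log2 value of 11.34, 10.94 and 11.05 in vehicle-treated nondiabetic and 9.94, 10.30 and 10.35 in ATG-treated nondiabetic mice. Gucy1b3 was at 10.63, 10.40 and 10.43 in vehicle-treated nondiabetic and 9.35, 9.71 and 9.60 in ATG-treated nondiabetic mice. The groups did not overlap for either subunit. The differences were −0.91 for Gucy1a3 (SE 0.20, limma adjusted p = 0.0308), 1.88-fold lower, and −0.93 for Gucy1b3 (SE 0.15, limma adjusted p = 0.00884), 1.91-fold lower.

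In diabetic mice the subunits showed no called change with ATG. Gucy1a3 was at 10.75, 10.45 and 11.14 with vehicle and at 10.67, 11.29 and 11.00 with ATG. Gucy1b3 was at 10.29, 9.91 and 10.31 with vehicle and at 10.08, 10.54 and 10.40 with ATG. Vehicle- and ATG-treated diabetic mice overlapped for both, with differences of 0.20 (95% interval −0.24 to 0.64) and 0.17 (95% interval −0.15 to 0.49). The gap between both subunits was nearly the same in every group: the log2 value of Gucy1a3 exceeded that of Gucy1b3 by 0.62, 0.64, 0.61 and 0.65 in the order of the groups given above, in reads not divided by length.

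Pde5a (Entrez 242202, mm10 chr3:122729158-122859374, plus strand), which encodes the phosphodiesterase that sildenafil inhibits, fell with ATG in the same mice. It was at 10.27, 10.15 and 10.04 in vehicle-treated nondiabetic and at 9.16, 9.20 and 9.57 in ATG-treated nondiabetic mice, with no overlap. The difference was −0.84 (SE 0.13, limma adjusted p = 0.00853), 1.79-fold lower. In diabetic mice Pde5a was at 9.82, 9.68 and 10.05 with vehicle and at 10.00, 10.12 and 9.88 with ATG, and these overlapped. Prkg1 (Entrez 19091, mm10 chr19:30564487-31664370, minus strand), the kinase that cyclic GMP activates, was at 10.81, 10.62 and 10.77 in vehicle-treated nondiabetic and at 9.64, 10.07 and 10.57 in ATG-treated nondiabetic mice. It did not pass the test (−0.64, SE 0.22, limma adjusted p = 0.0946), although the groups did not overlap, and it was called without ATG-treated nondiabetic mouse 3 (−0.88, limma adjusted p = 0.0105), the 1 call in 12 such fits. Without ATG-treated nondiabetic mouse 1 the Prkg1 difference was −0.41 and was not called. It was −0.37 without mouse 1 of both nondiabetic groups and −0.34 with the tubule marker mean as covariate, and was called in neither fit. In diabetic mice Prkg1 was at 10.71, 10.54 and 11.18 with vehicle and at 10.65, 10.95 and 10.93 with ATG, which overlapped.

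**Figure D2:**
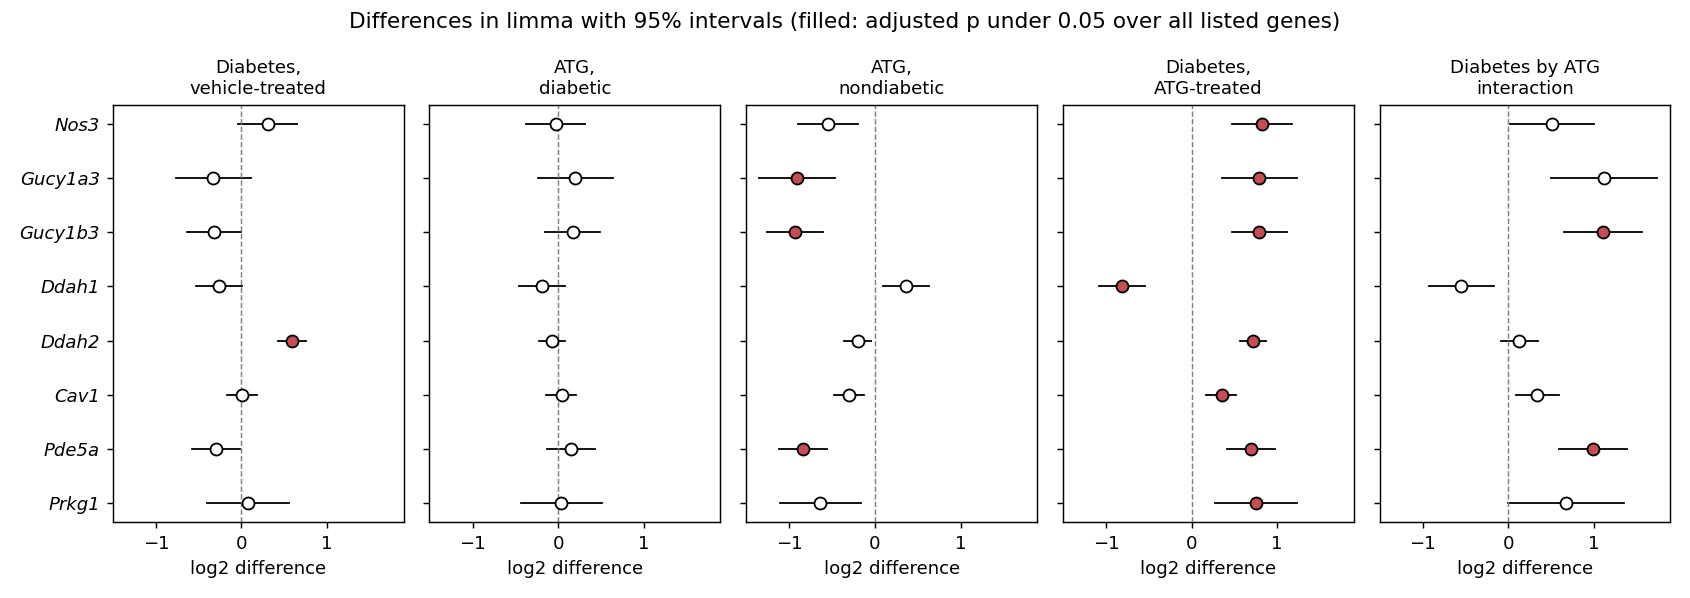
Log2 differences (x axis) of the 8 members (y axis) in the 4 comparisons of groups and in the interaction, which is the ATG difference in diabetic minus that in nondiabetic mice; points are limma estimates, lines are 95% intervals and filled points have an adjusted p under 0.05. With ATG in nondiabetic mice Gucy1a3, Gucy1b3 and Pde5a are filled at −0.91, −0.93 and −0.84, and with ATG in diabetic mice all 8 intervals include 0.

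For ATG in nondiabetic mice, 3 of the 8 members were called, all lower, where 5.22% of all genes were called and 4.51% were called lower. All 8 had an unadjusted p under 0.05, as did 4263 of the 14096 genes. Groups did not overlap for 7 members, 6 of them lower, and for 34.4% of all genes. The median difference was −0.59 over the members and −0.0388 over all genes. Called counts rested on the mice in the fit: 8 members were called without ATG-treated nondiabetic mouse 3, and 2 to 4 when any other mouse was left out. Over all 14096 genes 3531 were called without that mouse, against 736 with all mice and 60 to 1420 without any other. Gucy1b3 and Pde5a were called in all 12 of these fits and Gucy1a3 in 5. Gucy1a3 lost its call without any vehicle-treated nondiabetic mouse, ATG-treated nondiabetic mouse 1 or 2, vehicle-treated diabetic mouse 1 or ATG-treated diabetic mouse 3, with limma adjusted p-values of 0.0501 to 0.112. No member was called, nor any of the 14096 genes, when only the 6 nondiabetic mice entered the fit. None of the members was called either without mouse 1 of both nondiabetic groups (Gucy1b3 −0.76, limma adjusted p = 0.109), or with the tubule marker mean as covariate (Gucy1b3 −0.86, limma adjusted p = 0.0681, and Pde5a −0.74, limma adjusted p = 0.0659). These fits called 8 and 47 of the 14096 genes.

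Markers of mesangial and smooth muscle cells, the cells in which the cyclase and its effectors act, moved with these members. Of 12 such markers, 12 were lower with ATG in nondiabetic mice and 7 were called lower. Their mean was 11.66 ± 0.258 (SD, n = 3) in vehicle-treated nondiabetic, 10.77 ± 0.220 in ATG-treated nondiabetic, 11.30 ± 0.214 in vehicle-treated diabetic and 11.39 ± 0.142 in ATG-treated diabetic mice. The summed linear level was 41794 to 57269 and 22658 to 30430 in the nondiabetic groups, and 34994 to 44833 and 40988 to 47807 in the diabetic groups, in the same order. Of 16 endothelial markers 6 were called lower, and of 20 tubule markers 20 were higher and 0 called (5 had an unadjusted p under 0.05). Of 12 podocyte markers 12 were lower and 0 called (7 had an unadjusted p under 0.05), with a mean of 14.63 ± 0.0748 in vehicle-treated and 14.01 ± 0.611 in ATG-treated nondiabetic mice. Against the mesangial and smooth muscle mean of the same mouse, Gucy1a3, Gucy1b3 and Pde5a differed by −0.05 to 0.17 over the 4 comparisons of groups, with overlap in each. Prkg1 was higher on this scale by 0.44 in vehicle-treated diabetic than in vehicle-treated nondiabetic mice, without overlap. It differed by −0.06 to 0.25 in the other comparisons, with overlap. The part of the cell makeup in these differences was not tested.

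**Figure D3:**
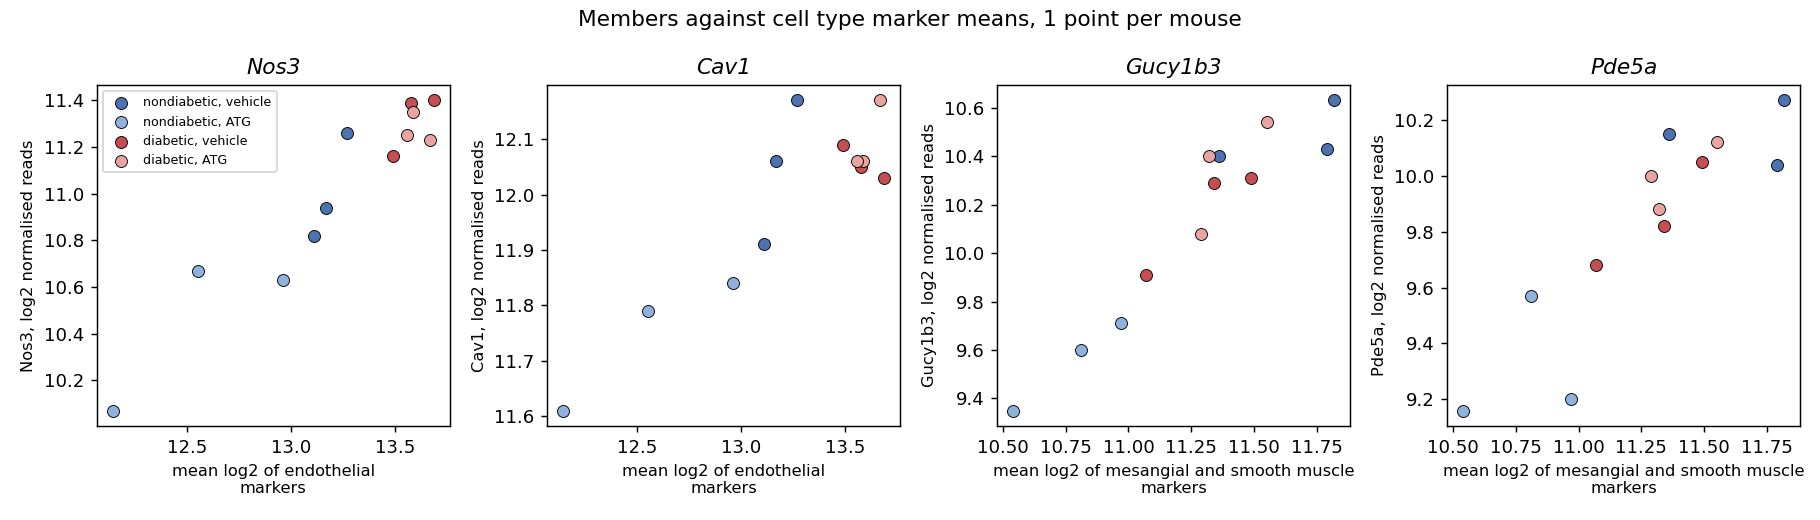
Log2 normalised reads of Nos3, Cav1, Gucy1b3 and Pde5a (y axes) against the mean log2 value of endothelial or of mesangial and smooth muscle markers (x axes), 1 point per mouse and 1 colour per group. The ATG-treated nondiabetic mice are at the lower left in all 4 panels; in the Cav1 panel the diabetic mice are further right than the vehicle-treated nondiabetic mice but no higher.

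For ATG in diabetic mice 0 of the 8 members were called in limma, as were 0% of all genes. None of the 8 had an unadjusted p under 0.05, against 636 of the 14096 genes, and limma-voom called 0 as well. The differences ran from −0.19 for Ddah1 to 0.20 for Gucy1a3. Groups did not overlap for 1 member, Ddah1, and for 10.2% of all genes. The 95% intervals were widest for Prkg1, from −0.44 to 0.51, and were narrowest for Ddah2, from −0.23 to 0.08.

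Diabetes in vehicle-treated mice left 7 of the 8 members uncalled. Gucy1a3 differed by −0.33 (limma adjusted p = 0.263), Gucy1b3 by −0.32 (limma adjusted p = 0.146) and Pde5a by −0.30 (limma adjusted p = 0.117). Without vehicle-treated diabetic mouse 2 Gucy1a3 differed by −0.16 and Gucy1b3 by −0.19, without vehicle-treated diabetic mouse 3 Gucy1a3 differed by −0.51, and without vehicle-treated nondiabetic mouse 1 by −0.21, none of them called. Prkg1 differed by 0.08 (limma adjusted p = 0.830), and by −0.51 (SE 0.29, limma adjusted p = 0.321) with the tubule marker mean as covariate. The same covariate gave −0.68 (SE 0.31) for Gucy1a3, −0.45 (SE 0.24) for Gucy1b3 and −0.50 (SE 0.20) for Pde5a, none of them called. Groups did not overlap for Gucy1b3, Ddah1 and Ddah2, 3 of 8 members, and for 41.7% of all genes. Against the endothelial mean of the same mouse, Gucy1a3, Gucy1b3 and Pde5a were lower by −0.73, −0.72 and −0.70, Ddah1 by −0.66 and Prkg1 by −0.32, all without overlap. The endothelial mean itself rose from 13.18 ± 0.0778 to 13.58 ± 0.103 (SD, n = 3), so an unchanged gene is lower on this scale. Cav1, with a difference of 0.01, was lower on it by −0.39 without overlap. The share of all genes lower on this scale was not counted. Mesangial and smooth muscle markers were also lower in this comparison, 12 of 12 with a median of −0.29 and 1 called. Against their mean Gucy1a3, Gucy1b3 and Pde5a differed by 0.03, 0.04 and 0.06, with overlap, and Prkg1 by 0.44, without overlap.

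Diabetic against nondiabetic mice under ATG was the comparison with the most calls. All 8 members were called, 7 higher and Ddah1 lower, where 46.7% of all genes were called, 25.9% higher and 20.8% lower. Groups did not overlap for any of the 8 members and for 56.1% of all genes. Gucy1a3 and Gucy1b3 each rose by 0.79 (limma adjusted p = 0.00871 and 0.00187), Prkg1 by 0.75 (limma adjusted p = 0.0162), Pde5a by 0.69 (limma adjusted p = 0.00188) and Cav1 by 0.35 (limma adjusted p = 0.00534). This comparison uses the same ATG-treated nondiabetic mice as that of ATG in nondiabetic mice, so the low values of those mice enter both. Prkg1 lost its call without ATG-treated nondiabetic mouse 1 (0.52), ATG-treated diabetic mouse 2 (0.69) or ATG-treated diabetic mouse 3 (0.71). It also lost it without mouse 1 of both nondiabetic groups (0.52, limma adjusted p = 0.0808). With the label number of the mice as a block, Gucy1a3 (0.69, limma adjusted p = 0.0549) and Prkg1 (0.54, limma adjusted p = 0.0841) were not called. Called higher here were 15 of 16 endothelial, 8 of 12 mesangial and smooth muscle, 5 of 12 podocyte and 5 of 11 leukocyte markers. Against the endothelial mean of the same mouse, the 7 members called higher differed by −0.71 to −0.24. Against the mesangial and smooth muscle mean they differed by −0.27 to 0.20, with overlap. The part of the cell makeup was not tested. The tubule markers were called lower for 19 of 20 genes here, and with their mean as covariate 0 of the 8 members were called and the standard errors were larger. That fit called 104 of the 14096 genes, against 6585 without the covariate. With the covariate Nos3 differed by 0.56 (SE 0.31), Gucy1b3 by 0.61 (SE 0.29), Gucy1a3 by 0.34 (SE 0.37), Pde5a by 0.43 (SE 0.24), Cav1 by 0.33 (SE 0.16) and Prkg1 by −0.00276 (SE 0.35).

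**Figure D4:**
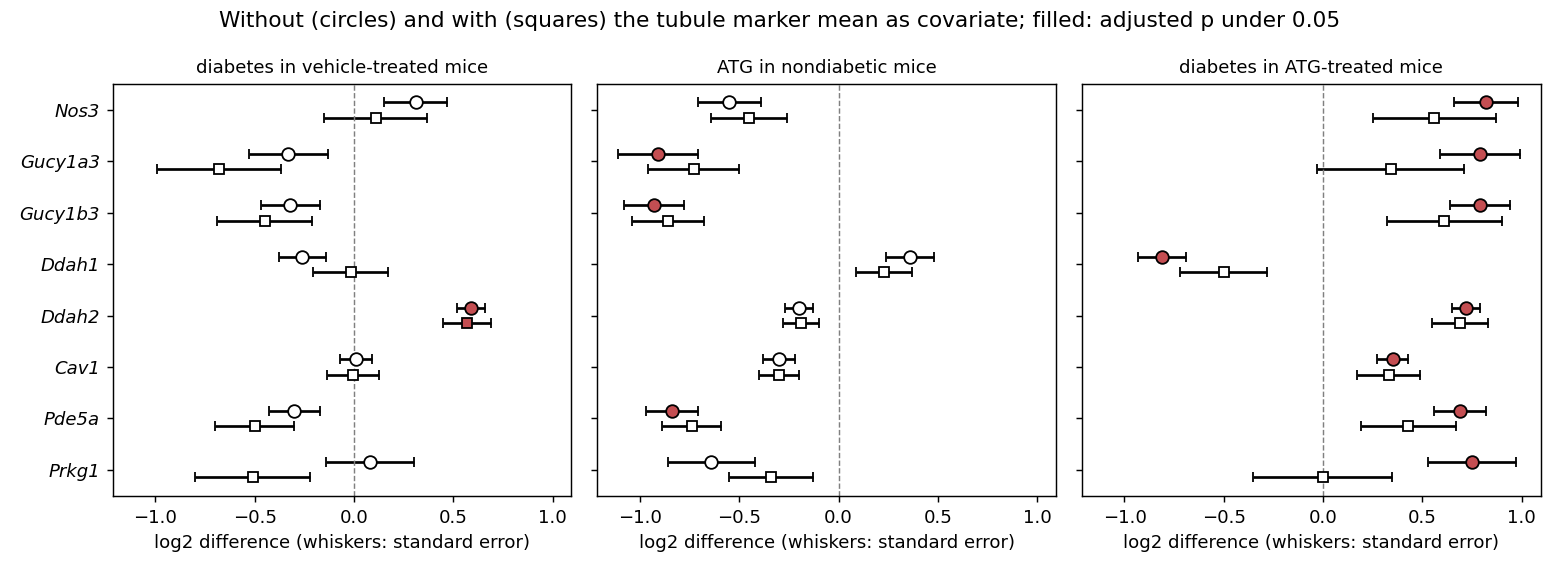
Log2 differences (x axis, whiskers are standard errors) of the 8 members (y axis) in 3 comparisons, without (circles) and with (squares) the mean of 20 tubule markers as a covariate in limma; filled symbols have an adjusted p under 0.05. Ddah2 between vehicle-treated groups is the only filled square, at 0.57, and the standard errors are wider with the covariate in most cases.

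The ATG difference itself differed between diabetic and nondiabetic mice for Gucy1b3 (interaction 1.10, SE 0.21, limma adjusted p = 0.0489) and Pde5a (0.99, SE 0.18, limma adjusted p = 0.0455). These were 2 of 8 members, where 0.546% of all genes were called. Gucy1a3 had the largest estimate of the members, 1.12 (SE 0.28, limma adjusted p = 0.121), and was not called. Ddah1 had the opposite sign, −0.55 (SE 0.17, limma adjusted p = 0.221). Both calls were lost when any 1 of 10 mice was left out, where 6 to 35 of all genes were called, against 77 with all mice. The exceptions were ATG-treated nondiabetic mouse 3, without which 3 members and 770 of all genes were called, and vehicle-treated diabetic mouse 3, without which 2 members and 124 of all genes were. The estimates in the 12 fits were 0.97 to 1.23 for Gucy1b3 and 0.91 to 1.12 for Pde5a. With the tubule marker mean as covariate they were 1.06 (limma adjusted p = 0.0752) and 0.93 (limma adjusted p = 0.0698).

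Of 52 further genes of the pathway, 49 were tested. Between vehicle-treated groups 12 were called (24.5%, beside 18.9% of all genes), 6 higher and 6 lower in diabetes. Among the other synthases and their partners, Nos2, the inducible synthase, rose by 1.10 (SE 0.14, limma adjusted p = 0.00207), 2.15-fold. Its log2 value was 8.81, 8.38 and 8.54 in vehicle-treated nondiabetic and 9.62, 9.64 and 9.79 in vehicle-treated diabetic mice, with no overlap. Nos2 is also made by activated macrophages, and leukocyte markers were higher in the same comparison for 11 of 11 genes, 6 of them called, with a summed linear level of 4214 to 6471 and 7895 to 10585. Erythrocyte markers were higher for 5 of 5 genes, 3 of them called, and the part of these cells was not tested. Nos1, the neuronal synthase, which in the kidney is known from the macula densa, fell by 0.76 on the log2 scale (SE 0.17, limma adjusted p = 0.0134). It went from 8.47, 8.48 and 8.40 to 7.95, 7.70 and 7.41. Nostrin, which encodes a protein that moves NOS3 from the cell membrane, rose by 0.88 (SE 0.15, limma adjusted p = 0.00619), from 11.21, 11.10 and 11.06 to 12.07, 11.87 and 12.07. The 3 synthases thus differed in direction or call: Nos2 higher, Nos1 lower and Nos3 not called.

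In the supply of substrate, Ass1, which joins citrulline and aspartate on the way to arginine, fell by 1.89 on the log2 scale (SE 0.42, limma adjusted p = 0.0137), from 14.38, 14.02 and 13.21 to 12.24, 12.51 and 11.19. Ass1 is known to be abundant in the proximal tubule, and the tubule markers were called lower for 12 of 20 genes in the same comparison, with a summed linear level of 417422 to 486305 in vehicle-treated nondiabetic and 99235 to 272670 in vehicle-treated diabetic mice. Prmt1, a methyltransferase that gives rise to asymmetric dimethylarginine, rose by 0.30 (SE 0.07, limma adjusted p = 0.0158). For the cofactor tetrahydrobiopterin, Gchfr, the feedback regulator of its synthesis, rose by 0.61 (SE 0.11, limma adjusted p = 0.00585). Qdpr, a gene of its recycling, fell by 0.41 (SE 0.11, limma adjusted p = 0.0293). Downstream of the kinase, its substrate Vasp rose by 0.47 (SE 0.07, limma adjusted p = 0.00308) and the calcium channel gene Itpr1 fell by 0.39 (SE 0.08, limma adjusted p = 0.0122). Of the 8 other cyclic GMP phosphodiesterases and the 4 other guanylate cyclase and natriuretic receptor genes, 0 were called (2 and 1 had an unadjusted p under 0.05).

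With the tubule marker mean as covariate, 1 of these 12 calls remained, that of Vasp (0.48, SE 0.11, limma adjusted p = 0.0498), where 414 of all 14096 genes were called, against 2659 without the covariate. Leaving out vehicle-treated nondiabetic mouse 1, vehicle-treated nondiabetic mouse 2 or vehicle-treated diabetic mouse 1 left 7, 6 and 7 genes called, beside 1262, 801 and 1003 of all genes. Nos2, Nostrin, Gchfr and Vasp were called in all 12 of these fits.

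With ATG in nondiabetic mice 9 of the 49 were called (18.4%, beside 5.22% of all genes), 7 of them lower. Gucy1a2, the alternative alpha subunit of soluble guanylate cyclase, fell by 1.13 on the log2 scale (SE 0.17, limma adjusted p = 0.00884), from 10.83, 10.76 and 10.94 to 9.28, 9.93 and 9.93. Npr2, the membrane guanylate cyclase that binds C-type natriuretic peptide, fell by 0.60 (SE 0.09, limma adjusted p = 0.00884), from 9.76, 9.64 and 9.53 to 9.05, 9.15 and 8.93. Neither gene's groups overlapped, nor did those of 34.4% of all genes. By the limma calls, 3 of the 3 listed soluble cyclase subunits and 1 of 3 natriuretic peptide receptors were lower. Of these, Gucy1a3 was called in 5 of 12 fits without 1 mouse. The groups of Npr1 did not overlap either, and it was not called (limma adjusted p = 0.0859). Mrvi1, the kinase substrate that lowers calcium release from stores, fell by 0.89 (SE 0.13, limma adjusted p = 0.00719), from 11.06, 10.60 and 10.85 to 9.80, 9.99 and 10.05. Vasp fell by 0.43 (SE 0.07, limma adjusted p = 0.00853), Nos2 by 0.61 (SE 0.14, limma adjusted p = 0.0336) and Nostrin by 0.60 (SE 0.15, limma adjusted p = 0.0478). Trpc6, a cation channel gene of podocytes and mesangial cells, fell by 1.10 (SE 0.18, limma adjusted p = 0.00994) at 65 to 210 reads per mouse. Adh5, which encodes the reductase of S-nitrosoglutathione, rose by 0.37 (SE 0.09, limma adjusted p = 0.0368).

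Npr2 was the 1 gene of these 9 still called with the tubule marker mean as covariate (−0.71, SE 0.10, limma adjusted p = 0.0169). Mrvi1 and Npr2 were called in all 12 fits without 1 mouse, Gucy1a2, Vasp and Trpc6 in 11, Nos2 in 4, Adh5 in 3 and Nostrin in 2. The count was 21 without ATG-treated nondiabetic mouse 3, where 3531 of all genes were called, against 736 with all mice. It was 4 without vehicle-treated nondiabetic mouse 1 and 3 without vehicle-treated nondiabetic mouse 3, beside 127 and 60 of all genes. It was 5 without ATG-treated nondiabetic mouse 1 or 2, vehicle-treated diabetic mouse 1 or ATG-treated diabetic mouse 1, beside 212, 201, 400 and 450 of all genes.

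ATG in diabetic mice gave 0 calls among the 49, and 0 had an unadjusted p under 0.05. Diabetic against nondiabetic mice under ATG gave 35 (71.4%, beside 46.7% of all genes), of which 21 were higher and 14 lower. The lowest p was that of Vasp (0.89, SE 0.07, limma adjusted p = 5.05e-05), at 10.74, 10.93 and 10.88 in nondiabetic and 11.75, 11.71 and 11.76 in diabetic mice. Nos2 rose by 1.57 (SE 0.14, limma adjusted p = 6.81e-05), Nostrin by 1.37 (SE 0.15), Gucy1a2 by 1.14 (SE 0.17) and Npr2 by 0.69 (SE 0.09). Asl, the enzyme after Ass1 in arginine synthesis, fell by 1.42 (SE 0.24), Qdpr by 0.73 (SE 0.11), Spr, the last enzyme of tetrahydrobiopterin synthesis, by 0.55 (SE 0.10) and Adh5 by 0.45 (SE 0.09). The 7 genes from Nostrin to Adh5 had limma adjusted p-values of 0.000195 to 0.00219. Leukocyte markers were higher for 11 of 11 genes here, 5 of them called, and endothelial markers were called higher for 15 of 16. The part of these cells was not tested. By role, 9 of 13 other synthases and partners and 3 of 4 other cyclases and natriuretic receptors were called higher, and 4 of 6 tetrahydrobiopterin genes were called lower, where 25.9% of all genes were called higher and 20.8% lower. Of 7 arginine genes 2 were called higher and 3 lower, and of 8 other phosphodiesterases 1 and 3. Of 9 kinase and effector genes 5 were called higher and 2 lower, and of 2 genes of nitric oxide removal 0 and 1. With the tubule marker mean as covariate 2 of the 35 were called, Npr2 (0.97, SE 0.16, limma adjusted p = 0.0347) and Vasp (0.90, SE 0.13, limma adjusted p = 0.0300). The interaction was called for Gucy1a2 and Mrvi1.

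**Figure D5:**
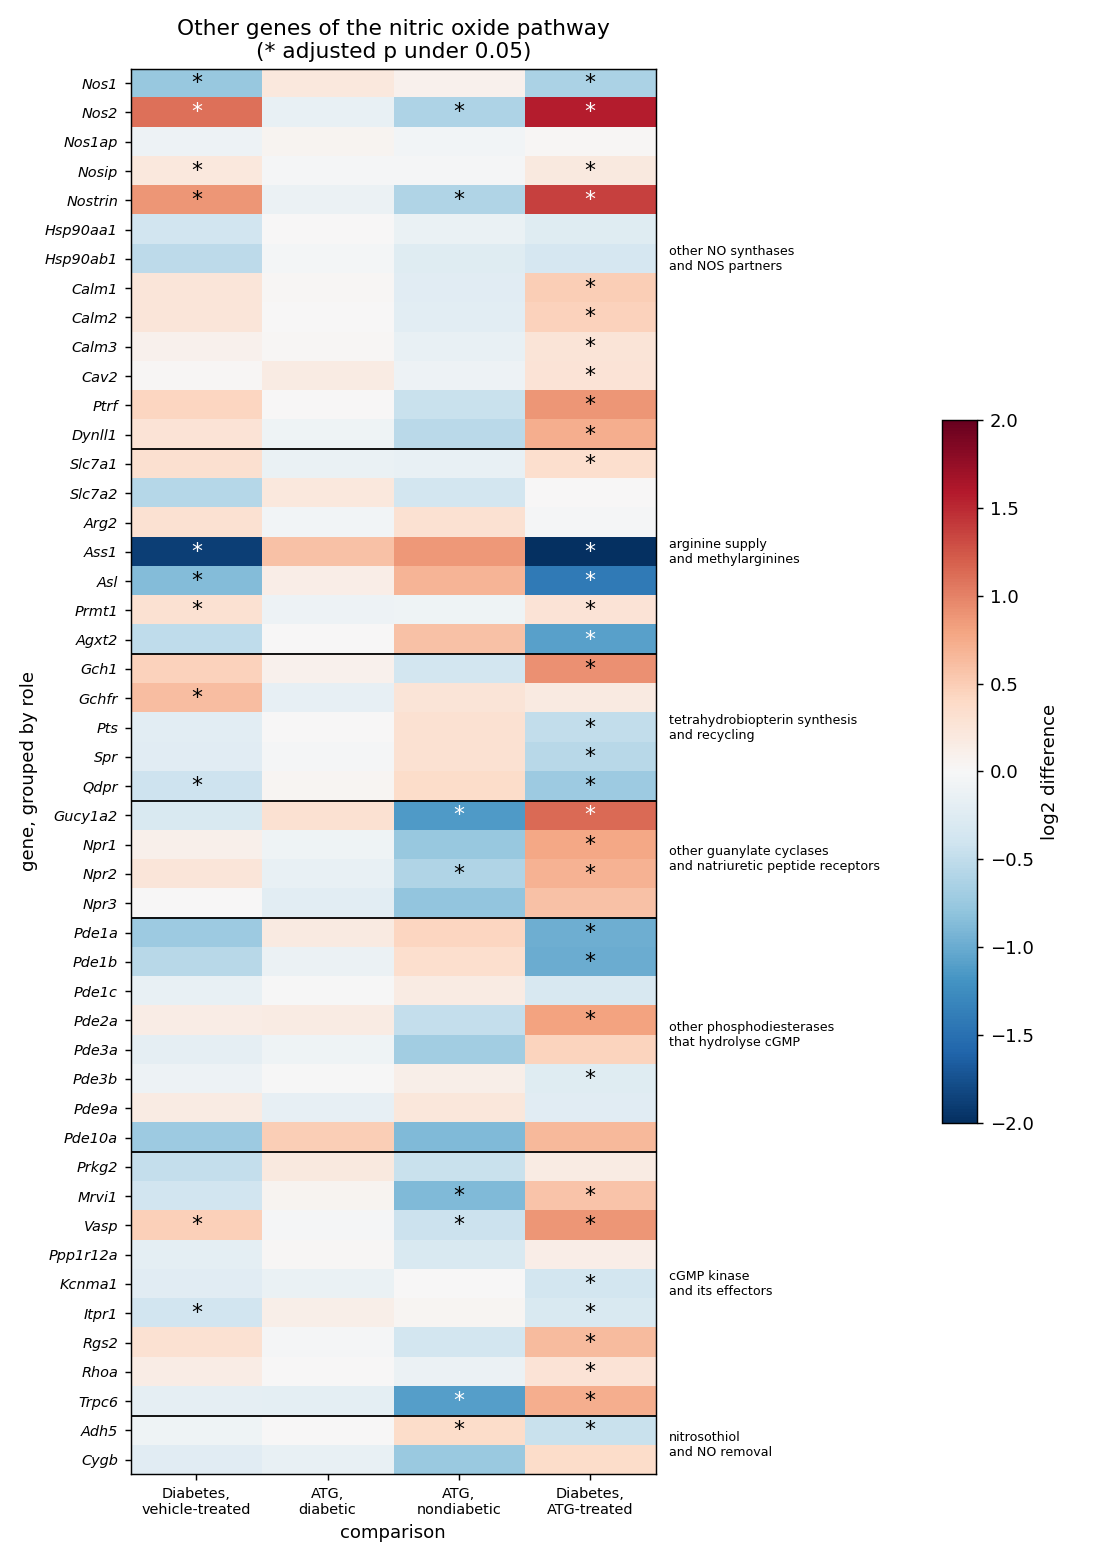
Log2 differences (colour, on the scale of the bar) of 48 further genes of the nitric oxide pathway (rows, grouped by role) in the 4 comparisons of groups (columns); asterisks mark an adjusted p under 0.05 in limma, and Ass1 under ATG (−2.18) is past the end of the colour scale. The column for ATG in diabetic mice holds 0 asterisks, and those for diabetes with vehicle, ATG in nondiabetic mice and diabetes under ATG hold 11, 8 and 34.

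The genes whose log2 values followed each member most closely over the 12 mice are given as a description, since all points share the group differences and the tubule content of their libraries. Gucy1b3 was closest to Gucy1a3 (Pearson's r = 0.970), followed by Pdgfrb (0.967), the platelet-derived growth factor receptor of mesangial cells and pericytes, and Npy1r (0.966). Gucy1a3 was closest to Atp1b2 (0.976), Gucy1b3 and Itsn1 (0.953). Pde5a was closest to Trpc4 (0.985), Rgag4 (0.976) and Itga8 (0.956), an integrin of mesangial cells, and Prkg1 to Arhgef17 (0.989), Tnfsf12 (0.986) and Speg (0.984). Pdgfrb and Itga8 are also on the list of mesangial and smooth muscle markers used above. Nos3 was closest to Sugp2 (0.983), Swap70 (0.983) and 2700081O15Rik (0.980), and Cav1 to Tgfb3 (0.965), Cp (0.955) and Bmp2 (0.955).

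The closest genes of Ddah2 were Mki67 (r = 0.989), the gene of the proliferation antigen Ki-67, Cdc20 (0.988), an activator of the anaphase-promoting complex, and Anln (0.987), which encodes the cytokinesis protein anillin. A link of Ddah2 to proliferation was not tested. Ddah1 was closest to Def8 (0.953), Abhd1 (0.948) and Pepd (0.944). Between Ddah1 and Ddah2 r was −0.837 over the 12 mice and −0.0337 for their deviations from the group means. Between Gucy1a3 and Gucy1b3 it was 0.918 for the deviations, so their values also moved together among mice of the same group. Other pairs did so too, with 0.813 for Gucy1a3 and Prkg1, 0.802 for Pde5a and Prkg1 and 0.719 for Nos3 and Cav1. Over all pairs of members the r of deviations ran from −0.0963 (Ddah1 and Prkg1) to 0.918.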

How the data were processed

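mRNA had been sequenced from glomeruli of 12 mice. The deposited values are log2 normalised reads per gene, made by the authors. On the linear scale 83.4 to 84.0% of values under 2000 reads were whole multiples (within 0.02 reads) of 1 step per library, so reads were recovered with that step. The linear values sum to 29.73 to 30.2 M per library. The submitters' processing notes name limma and mm10 without a role. The aligner and counting software are not given in the sources used here. No replicate was pooled.

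The 8 members, the 52 further pathway genes and the marker lists were chosen with earlier results of these data known. All 14096 genes and 12 mice entered 1 fit of the 4 groups in limma 3.58.1 (R 4.3.3) with a mean-variance trend, with 5 contrasts, two-sided, no pseudocount and no filter. P-values measure the spread between the mice of these groups. An exact permutation test of 3 against 3 mice cannot go below 0.1 and was not used. The text names all members, the 3 genes most correlated with each and, per contrast, up to 10 called pathway genes with the lowest p, less 1 that is not reported here though it is in the counts. Recovered reads range from 23.64 to 29.77 M per mouse.

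Alternatives were a fit of the compared groups alone, at least 10 reads in each mouse, a replicate block, each mouse left out, both unnumbered nondiabetic mice left out, the tubule marker mean as covariate, median-ratio scaling and limma-voom on recovered reads. Levels relative to marker means were added after seeing the data. The fit was tested on simulated data. Python 3.11.15 and matplotlib 3.10.9 drew the figures. Promoter windows are from RefSeq on GRCm38.p6, the assembly of mm10.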

Additional observations from a re-analysis of the deposited data

Results flagged for a closer look

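For 4 genes of the pathway, of the 8 members and 49 further genes tested, the ATG difference in diabetic mice minus that in nondiabetic mice passed the test of the difference itself (limma, adjusted over all genes), which 0.546% of all genes passed. It was 1.10 for Gucy1b3, with −0.93 in nondiabetic and 0.17 in diabetic mice. It was 0.99 for Pde5a, with −0.84 and 0.15. The value was 1.44 for Gucy1a2 (SE 0.25, limma adjusted p = 0.0455) and 0.95 for Mrvi1 (SE 0.18, limma adjusted p = 0.0489). Leaving out 1 mouse moved these to 1.22 to 1.59 for Gucy1a2 and 0.84 to 1.07 for Mrvi1, each called in 3 of 12 such fits. Of 12 mesangial and smooth muscle markers, 3 were called in the same direction and 12 were positive, with a median of 1.00. Endothelial markers were positive for 16 of 16 genes and podocyte markers for 12 of 12, with 0 called (12 and 0 had an unadjusted p under 0.05).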

How the results depend on the processing

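Of 280 member results under 7 alternatives, 247 kept direction and call, 25 lost the call, 1 gained it and 7 changed sign. Most of the 40 main results had no call to lose, so the 247 do not measure how firm the calls are. In the main fit, diabetes with vehicle called 1 member, and ATG called 0 in diabetic and 3 in nondiabetic mice. Diabetes under ATG called 8 and the interaction 2. The filter of 10 reads removed no member, and for the interaction the compared groups are all 4 groups of the main fit. With the tubule marker mean as covariate, members called fell from 3 to 0 (ATG in nondiabetic mice), 8 to 0 (diabetes under ATG) and 2 to 0 (interaction), and further pathway genes from 12 to 1 (diabetes with vehicle), 9 to 1, 35 to 2 and 2 to 0. All genes called fell likewise, from 2659 to 414, 736 to 47, 6585 to 104 and 77 to 36 of 14096. Only the groups compared, or leaving out both unnumbered nondiabetic mice, gave 0 members and 0 further genes for ATG in nondiabetic mice; the latter also gave 0 and 0 for the interaction. These fits called 0 and 8 of all genes for ATG in nondiabetic mice, and the latter called 6 in the interaction. Signs changed, uncalled, for Cav1 between vehicle-treated groups (replicate block −0.00578, covariate −0.00533, median-ratio scaling −0.00779), Prkg1 there (block −0.13, covariate −0.51), Nos3 with ATG in diabetic mice (covariate 0.0105) and, from a call, Prkg1 under ATG (covariate −0.00276). With the covariate the interaction was still 1.06 for Gucy1b3 and 0.93 for Pde5a, and diabetes under ATG 0.69 for Ddah2 and 0.33 for Cav1. The causes were not tested.

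Mice of the same label number are different animals, and their deviations from the group means correlated from −0.59 to 0.339. In the nondiabetic groups this label number is not the numbering used here: mouse 1 has none, and mice 2 and 3 have 1 and 2. No nondiabetic mouse has label number 3 and every diabetic mouse has a number. The replicate block, which uses the label numbers, is therefore partly confounded with diabetes. The replicate block left 1, 0, 3, 6 and 0 members called in the 5 contrasts (diabetes with vehicle, ATG in diabetic, ATG in nondiabetic, diabetes under ATG, interaction) and 0 further genes in the interaction. It gave 0.18 for Nos3 between vehicle-treated groups. Each diabetic mouse except vehicle-treated mouse 2 correlated best with the mouse of its own number in the other diabetic group. The r of these same-number pairs was 0.315, 0.0537 and 0.339. Whether the numbers mark a shared batch was not tested.

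Leaving out 1 mouse gave 1 to 1, 0 to 0, 2 to 8, 7 to 8 and 0 to 3 members and 6 to 17, 0 to 0, 3 to 21, 30 to 35 and 0 to 7 further genes, in that order. It changed signs of Cav1 (−0.0599 to 0.0684) and Prkg1 (−0.11 to 0.21) between vehicle-treated groups and of Nos3 (−0.11 to 0.00793) and Prkg1 (−0.1 to 0.22) with ATG in diabetic mice. A minimum of 10 reads changed no call.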
